A study of Canis lupus familiaris with 8 samples.

Results

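Core histones package DNA into nucleosomes, and linker histones bind the DNA between them. Replication-dependent histone genes lie in clusters of near-identical copies and are expressed mainly in S phase, when new DNA must be packaged. Their mRNAs end in a stem-loop in place of a poly(A) tail. Variant histone genes lie elsewhere, are expressed through the cell cycle from polyadenylated mRNA, and supply forms such as H2A.Z and H3.3 that are exchanged into chromatin without replication.

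The core and linker histone genes described here were chosen by gene symbol, with a pattern of histone names that leaves out H2AX. The pattern took 17 of the 30424 rows of the expression table. No measured value enters it, but the group was proposed with results of these data known, so the calls below describe its members and are not independent support. Of the 17 rows, 15 carry a single symbol and 2 name several near-identical H2A genes. By class, 9 are replication-dependent, 6 are variant and 2 (H1-6 and H2AC1) belong to testis types of the gene clusters.

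Cultured dog cells were sequenced as 8 RNA libraries. JuB2 is a canine hemangiosarcoma cell line, a malignant tumour with endothelial features. It gave 3 libraries with an shRNA labelled as a KDM2B knockdown, 3 with a scramble shRNA as control, and 1 untreated library. The last library, labelled EC, is described as normal endothelial cells without treatment. Nothing in the labels says whether replicates were grown as separate cultures, and the p-values therefore cover the spread between libraries, which may be technical. All values are TPM, a share of transcripts and a level per transcript length that can be compared between genes but keeps no sequencing depth. In bulk RNA a change in the share of cells in S phase and a change in RNA per cell cannot be told apart.

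KDM2B, a histone lysine demethylase and the target of the hairpin, went against its label. It stood at 20.88, 19.69 and 18.25 TPM in the KDM2B-shRNA-labelled libraries, against 14.01, 15.01 and 12.89 TPM in scramble. It was thus higher, by 0.46 ± 0.11 in log2(TPM + 1) units (SE, limma adjusted p = 0.0101), but did not pass with trimmed-mean scaling (0.29, limma adjusted p = 0.0503). Directions below are those of the labelled libraries, and no loss of KDM2B transcript was measured. Of 11 endothelial markers, 3 to 4 reached 1 TPM in a JuB2 library and 6 in the EC-labelled library. PECAM1 and VWF reached at most 0.35 and 0.13 TPM in JuB2 and were listed at 0 in the EC-labelled library, as were TIE1 and ESAM. Others were present, with ENG at 20.3 to 40.01 TPM in JuB2 and 37.04 TPM in the EC-labelled library, and ERG at 0 to 9.22 TPM in JuB2 and 21.93 TPM in the EC-labelled library. TEK and EMCN, at most 0.1 and 0 TPM in JuB2, stood at 2.38 and 3.11 TPM in the EC-labelled library. KDR and EGFL7 were instead higher in JuB2, at 2.61 to 6.53 and 6.7 to 17.33 TPM. They stood at 1.24 and 1.93 TPM in the EC-labelled library. CDH5 was listed at 0 in JuB2 and at 0.64 TPM in the EC-labelled library. That library also held 5333.92 TPM of COL1A1 and 3527.19 TPM of DCN, fibroblast genes, and is named here by its label.

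Variant histone genes made up nearly all the TPM of the 17 rows. The 6 variant rows summed to 1603.25, 1449.29 and 1518.02 TPM in the KDM2B-shRNA-labelled libraries, against 1865.49, 1698.14 and 1700.62 TPM in scramble. The sum was 1821.96 TPM in untreated JuB2 and 706.02 TPM in the EC-labelled library. The 9 replication-dependent rows summed to 50.16, 136.94 and 125.57 TPM in the KDM2B-shRNA-labelled libraries, against 29.9, 16.37 and 21.42 TPM in scramble. They summed to 20.75 TPM in untreated JuB2 and 5.86 TPM in the EC-labelled library. The shRNA groups did not overlap in either sum and stood in opposite order, the variant sum lower and the replication-dependent sum higher in the KDM2B-shRNA-labelled libraries. Of single genes tested, 59.3% did not overlap between the shRNA groups. H2AZ1 and H3-3A held 82.43 to 88.05% of the TPM of the 17 rows in the KDM2B-shRNA-labelled libraries and 89.55 to 92.16% in scramble. The variant sum thus rests mostly on those genes. Of the replication-dependent sum, the 6 H2AC rows of H2A genes held 43.16, 131.34 and 114.85 TPM in the KDM2B-shRNA-labelled libraries. In scramble they held 23.67, 6.01 and 15.47 TPM. The class sums over chosen members have no test, and their order was the same with trimmed-mean scaling and after rescaling without mitochondrially encoded genes.

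Markers of other cell types differed in the same contrast. Of 10 fibroblast and mural genes 7 were tested, and 5 were lower and 1 higher, where 17.6% of all genes were lower and 33.3% higher. Under trimmed-mean scaling 5 were lower and 0 higher, where 25.6% of all genes were lower and 22.7% higher. The summed level of the 10 was 794.6 to 867.6 TPM in the KDM2B-shRNA-labelled libraries, against 1590.0 to 1639.5 TPM in scramble. RGS5 and DCN were listed at 0 in all 7 JuB2 libraries. All 3 endothelial genes tested were higher, beside the same 33.3% of all genes, and under trimmed-mean scaling beside 22.7%. The 11 endothelial genes summed to 64.0 to 70.2 TPM in the KDM2B-shRNA-labelled libraries, against 30.8 to 38.4 TPM in scramble. Of 6 leukocyte genes only CD79A reached 1 TPM, at 1617.29 to 2036.96 TPM in JuB2 and 3056.11 TPM in the EC-labelled library. CD79A was called higher (0.17, limma adjusted p = 0.044), but its groups overlapped and it did not pass with trimmed-mean scaling. The part of all these genes in the histone sums was not tested.

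As a share of the TPM of all 17 rows, the replication-dependent rows held 3.03, 8.63 and 7.64% in the KDM2B-shRNA-labelled libraries, against 1.58, 0.955 and 1.24% in scramble. The share was 1.13% in untreated JuB2 and 0.823% in the EC-labelled library. Whether polyadenylated RNA was selected before sequencing is not given in the sources used here. Such selection would leave out mRNAs that end in a stem-loop. These low levels are thus those of the table, and whether they are those of the cells was not tested.

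H2AZ1, which encodes the H2A.Z variant found at promoters, was the most abundant of the 17 rows in every JuB2 library. It stood at 848.34, 752.25 and 766.12 TPM in the KDM2B-shRNA-labelled libraries, against 1011.22, 939.33 and 921.42 TPM in scramble. All 3 libraries labelled KDM2B shRNA lay below the lowest scramble library. The mean was 788.9 ± 51.9 TPM in the KDM2B-shRNA-labelled libraries and 957.3 ± 47.5 TPM in scramble (SD, n = 3 each). H2AZ1 fell by 0.28 ± 0.06 in log2(TPM + 1) units (SE, limma adjusted p = 0.00616), while the median of all 11485 genes tested was 0.16 higher. It was lower and past the threshold under all 16 alternatives tried, with differences between -0.46 and -0.24.

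H3-3A encodes the replacement histone H3.3, which is deposited independently of replication. It stood at 608.1, 555.33 and 619.22 TPM in the KDM2B-shRNA-labelled libraries, against 736.11, 638.83 and 621.23 TPM in scramble. The groups did not overlap, but library 3 labelled KDM2B shRNA and scramble library 3 were nearly equal. The difference of -0.16 ± 0.08 (SE, limma adjusted p = 0.109) did not pass. With scalings that bring the median gene nearer to 0 it was lower and passed: -0.34 with trimmed-mean scaling (limma adjusted p = 0.00555), -0.30 with quantile normalization (limma adjusted p = 0.0163) and -0.26 after rescaling without mitochondrially encoded genes (limma adjusted p = 0.0169).

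MACROH2A1, a large H2A variant linked to repressed chromatin, stood at 109.65, 112.23 and 104.27 TPM in the KDM2B-shRNA-labelled libraries, against 97.76, 98.44 and 110.44 TPM in scramble. The groups overlapped, and the difference of 0.09 ± 0.07 (SE, limma adjusted p = 0.33) did not pass. H2AJ, an H2A variant known to accumulate in senescent human cells, stood at 37.16, 29.48 and 28.41 TPM in the KDM2B-shRNA-labelled libraries, against 20.4, 21.54 and 47.53 TPM in scramble. Scramble library 3 lay above every other library for this gene, and the difference was 0.18 ± 0.30 (SE, limma adjusted p = 0.64). Without that library, the highest, H2AJ had a difference of 0.56 (limma adjusted p = 0.0183), and without any other it did not pass (limma adjusted p between 0.591 and 0.982), so the value rests on 1 library.

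**Figure D1:**
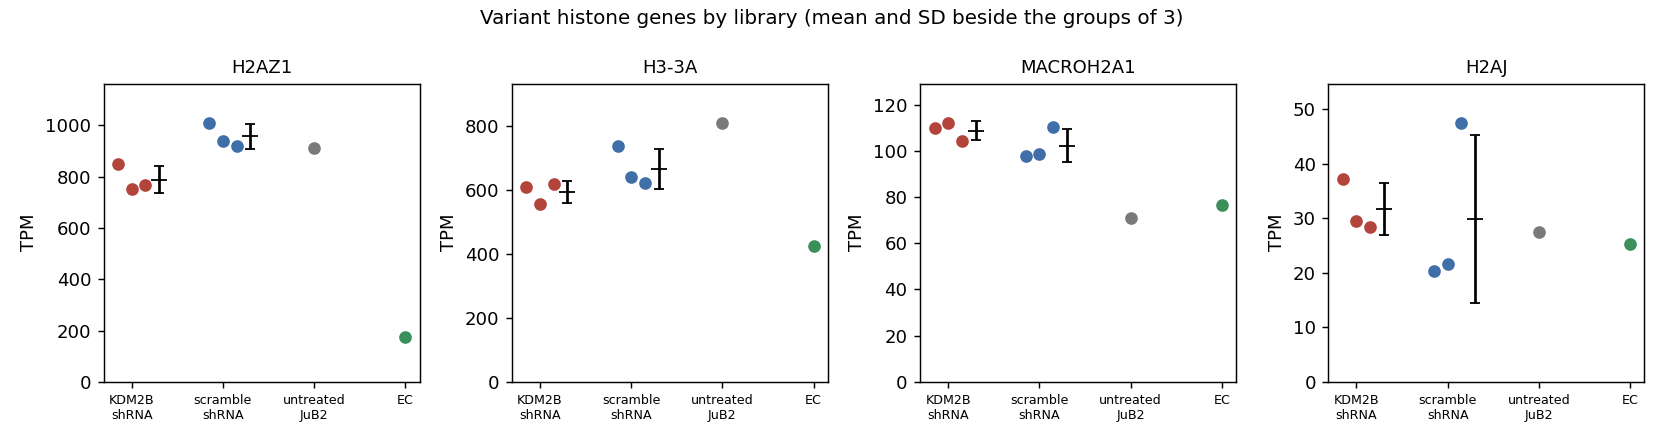
TPM of the 4 variant histone genes that were tested, by group, with 1 point per library and the mean and SD beside each group of 3. H2AZ1 sits at 752.25 to 848.34 TPM in the KDM2B-shRNA-labelled libraries and at 921.42 to 1011.22 TPM in scramble, and at 173.97 TPM in the EC-labelled library.

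The remaining variant rows were near or at 0. MACROH2A2, the second macroH2A gene, was listed at 0 in all 7 JuB2 libraries and at 6.81 TPM in the EC-labelled library. H2AB3, a variant of the testis, was listed at 0 in all 8 libraries. The testis cluster gene H2AC1 was likewise listed at 0 throughout, and H1-6, the testis linker histone, was at most 0.68 TPM in any library.

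H1-2 is the linker histone row of the replication-dependent class and the member of that class above 0 in every library. It stood at 7, 5.6 and 10.72 TPM in the KDM2B-shRNA-labelled libraries, against 6.23, 10.36 and 5.95 TPM in scramble. The groups overlapped over nearly their whole range, and the difference was 0.04 ± 0.27 in log2(TPM + 1) units (SE, limma adjusted p = 0.918). Untreated JuB2 held 5.83 TPM and the EC-labelled library 5.86 TPM of H1-2.

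The other replication-dependent rows were listed at 0 in at least 1 JuB2 library. A value of 0 in this table can be a failed estimate, since copies of a histone gene share most of their reads and how shared reads were assigned is not given, so these rows are described library by library. H2AW and the H2B gene H2BC2 were listed at 0 in all 8 libraries. H2AC13, a cluster gene for canonical H2A, was at 17.64, 15.31 and 18.14 TPM in the KDM2B-shRNA-labelled libraries and listed at 0 in all 3 scramble libraries, in untreated JuB2 and in the EC-labelled library. It was called higher (limma adjusted p = 9.29e-06), against a scramble group whose values are all 0 and have no spread. H2AC13 met the filter of at least 1 TPM in 3 libraries only through the group where it was high. Leaving out any KDM2B-shRNA-labelled library removes it from the test. The 13 alternatives that test it thus all keep the same 3 libraries labelled KDM2B shRNA, and are no independent check of the call.

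H2AC14, also a canonical H2A gene, was listed at 0, 15.98 and 11.44 TPM in the KDM2B-shRNA-labelled libraries and at 0 in every other library, and did not reach the filter. In the gene order of the RefSeq assembly UU_Cfam_GSD_1.0, which is not the build of these data, H2AC13 and H2AC14 are separated by a single protein-coding gene. Each has an H2B gene on its other side, H2BC13 and H2BC14. Both genes were listed above 0 only in KDM2B-shRNA-labelled libraries, H2AC13 in 3 of 3 and H2AC14 in 2 of 3. Neither the part of their position nor that of reads shared between copies was tested.

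Both rows with several symbols name H2AC15, H2AC5 and LOC106558252. The first, row A (ENSCAFG00000028830), was at 18.26, 0 and 17.31 TPM in the KDM2B-shRNA-labelled libraries, against 3.54, 0 and 0 TPM in scramble. The second, row B (ENSCAFG00000031754), was at 0, 75.93 and 61.04 TPM in the KDM2B-shRNA-labelled libraries, against 3.54, 0 and 0 TPM in scramble. Neither passed in limma (adjusted p = 0.171 for row A and adjusted p = 0.113 for row B), and each had a KDM2B-shRNA-labelled library at 0. Both values turn on the library at 0. With it left out, a choice made from the values, the adjusted p of limma was 0.00617 for row A and 0.00137 for row B. In the other fits with 1 library left out that test these rows, it was 0.33 and 0.335 for row A and 0.226 and 0.23 for row B.

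A further row, C (ENSCAFG00000029260), names the same genes in another order and falls outside the pattern. It was at 36.53, 0 and 0 TPM in the KDM2B-shRNA-labelled libraries, against 3.54, 20.3 and 0 TPM in scramble, and at 10.4 TPM in untreated JuB2. Which of rows A, B and C were listed at 0 differed between replicates of the same group. All 3 rows stood at 3.54 TPM in scramble library 1 and at 0 in scramble library 3. Their sum was 54.79, 75.93 and 78.35 TPM in the KDM2B-shRNA-labelled libraries, against 10.62, 20.3 and 0 TPM in scramble, 10.4 TPM in untreated JuB2 and 0 TPM in the EC-labelled library. The sum varied less between the KDM2B-shRNA-labelled replicates than row B did, and the shRNA groups did not overlap in it.

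H2AC6 and H2AC11, further canonical H2A genes, showed no such order. H2AC6 was at 0, 24.12 and 3.46 TPM in the KDM2B-shRNA-labelled libraries, against 13.27, 6.01 and 12.38 TPM in scramble (limma adjusted p = 0.358). Without library 2 labelled KDM2B shRNA, the highest, the adjusted p of limma was 0.0219, and without any other library it lay between 0.324 and 0.955. H2AC11 was at 7.26, 0 and 3.46 TPM in the KDM2B-shRNA-labelled libraries, against 3.32, 0 and 3.09 TPM in scramble (limma adjusted p = 0.752). Untreated JuB2 held 8.95 TPM of H2AC6 and 5.97 TPM of H2AC11, and both were listed at 0 in the EC-labelled library.

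Over all 7 H2AC rows, the 6 members and row C, the sum was 79.69, 131.34 and 114.85 TPM in the KDM2B-shRNA-labelled libraries, against 27.21, 26.31 and 15.47 TPM in scramble. Untreated JuB2 held 25.32 TPM, within the range of scramble, and the EC-labelled library 0 TPM. In the group means, the higher sum in the KDM2B-shRNA-labelled libraries came mostly from H2AC13, H2AC14 and the rows A and B. In library 1 labelled KDM2B shRNA, H2AC14 and row B were listed at 0 and row C was the largest, at 36.53 TPM. Taken singly, H2AC13 alone of the 7 rows did not overlap between the shRNA groups.

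**Figure D2:**
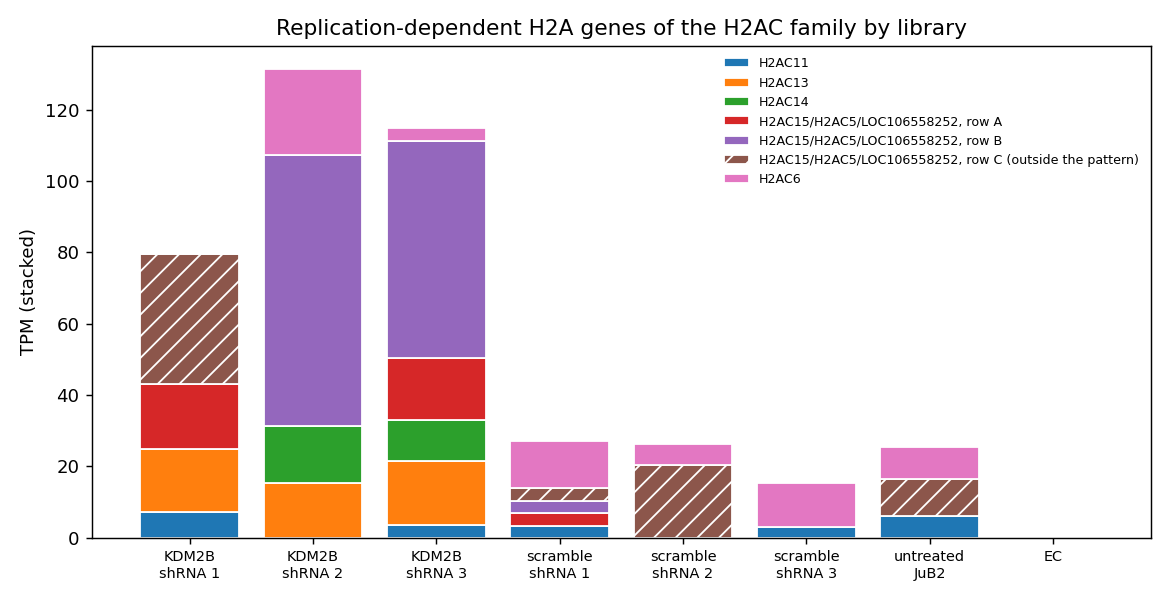
TPM of the 7 H2AC rows stacked by library, with 1 bar per library and row C hatched because it lies outside the pattern. The bars of the KDM2B-shRNA-labelled libraries reach 79.69 to 131.34 TPM and those of scramble 15.47 to 27.21 TPM, and the gene row that fills the bar differs between replicates.

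A further 17 histone rows fall outside the pattern, 15 of them because their cell names several genes. Besides row C they hold 11 rows of H4 genes and 5 of H2B genes, both core histones. Among the H4 rows, 5 carry identical values in all 8 libraries, and each is counted in the sum. Of 8 tested replication-dependent rows outside the pattern, 1 was called higher, beside 33.3% of all genes tested. This H4 row was at 17.4, 8.62 and 3.95 TPM in the KDM2B-shRNA-labelled libraries and at 0 in scramble. Its limma adjusted p was 0.000731, and untreated JuB2 held 3.84 TPM. It met the filter only through the libraries where it was high. The H4 rows summed to 17.4, 51.7 and 35.98 TPM in the KDM2B-shRNA-labelled libraries, against 0, 7.05 and 0 TPM in scramble, but untreated JuB2 held 33.59 TPM and lay within the range of the KDM2B-shRNA-labelled libraries. The H2B rows summed to 7.97, 3.98 and 30.37 TPM in the KDM2B-shRNA-labelled libraries, against 7.34, 13.28 and 17.06 TPM in scramble, and the groups overlapped.

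Of the 17 members, 10 passed the filter on low values and were tested, 4 variant and 6 replication-dependent. H2AC13 was called higher and H2AZ1 lower, and the other 8 did not pass. H2AC13 met the filter only through the libraries where it was high. Of all genes tested 33.3% were called higher and 17.6% lower. Under trimmed-mean scaling H2AC13 was called higher and H2AZ1 and H3-3A lower, and of all genes tested then 22.7% were higher and 25.6% lower. The shRNA groups did not overlap for 3 of the 10 tested members (H2AC13, H2AZ1 and H3-3A), and for 59.3% of all genes tested.

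Replicates agreed much better for the abundant variants than for the cluster genes. The coefficient of variation, the SD over the mean, was 6.58% in the KDM2B-shRNA-labelled libraries and 4.97% in scramble for H2AZ1, and for H3-3A 5.74% in the KDM2B-shRNA-labelled libraries and 9.30% in scramble. For H1-2 it was 34.0% in the KDM2B-shRNA-labelled libraries and 32.9% in scramble. H2AC13 was the exception among the cluster genes, with 8.87% in the KDM2B-shRNA-labelled libraries.

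Untreated JuB2 shows how far the scramble libraries themselves stood from cells without a hairpin, with a single library and no test. H2AZ1 stood at 1011.22, 939.33 and 921.42 TPM in scramble, against 913.34 TPM in untreated JuB2, just under the lowest scramble library. H3-3A stood at 736.11, 638.83 and 621.23 TPM in scramble, against 810.15 TPM in untreated JuB2, above every library with a hairpin. MACROH2A1 stood at 97.76, 98.44 and 110.44 TPM in scramble, against 70.97 TPM in untreated JuB2, below every library with a hairpin. In 5 of the 10 tested members untreated JuB2 lay outside the scramble range, as it did for 64.2% of all genes tested.

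Between JuB2 and the EC-labelled library, H2AZ1 and H3-3A differed in all 7 JuB2 libraries. H2AZ1 ranged from 752.25 to 1011.22 TPM with a median of 913.34 TPM in JuB2 and stood at 173.97 TPM in the EC-labelled library, a ratio of 5.25. H3-3A ranged from 555.33 to 810.15 TPM with a median of 621.23 TPM in JuB2 and stood at 423.59 TPM in the EC-labelled library, a ratio of 1.47. H3-3A was the most abundant of the 17 rows in the EC-labelled library, and H2AZ1 in JuB2. All 7 JuB2 libraries lay above the EC-labelled library for 2 of the 10 tested members and below it for 0, against 49.7% and 19.3% of all genes tested. MACROH2A1, H2AJ and H1-2 in the EC-labelled library fell within the JuB2 range, at 76.39, 25.26 and 5.86 TPM. With 1 library labelled EC there is no replicate check of these differences.

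Genes that make and process replication-dependent histone mRNA include both higher and lower ones. Of 18 tested genes of histone mRNA transcription and processing, 10 were higher, 3 lower and 5 did not pass, where 33.3% of all genes were higher and 17.6% lower. Under trimmed-mean scaling 7 were higher and 4 lower, where 22.7% of all genes were higher and 25.6% lower. Their median difference was 0.42, against 0.16 over all genes. The 3 lower genes, named after their values were seen, were NCBP1, MIF4GD and CPSF2. Their differences were -1.06, -0.39 and -0.36 (limma adjusted p = 7.89e-05, 0.019 and 0.0165). SLBP, which binds the stem-loop of histone mRNA, stood at 129.58, 118.82 and 114.6 TPM in the KDM2B-shRNA-labelled libraries, against 64, 71.47 and 71.92 TPM in scramble. It rose by 0.80 ± 0.08 in log2(TPM + 1) units (SE, limma adjusted p = 0.000185). CASP8AP2, also called FLASH, a factor of histone pre-mRNA cleavage, stood at 12.21, 11.43 and 12.29 TPM in the KDM2B-shRNA-labelled libraries, against 7.06, 7.29 and 6.78 TPM in scramble, and rose by 0.69 ± 0.12 (SE, limma adjusted p = 0.00231).

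NPAT, the activator of histone cluster transcription, was at 9.47, 11.06 and 9.34 TPM in the KDM2B-shRNA-labelled libraries, against 7.11, 7.76 and 8.54 TPM in scramble. Its groups did not overlap but it did not pass (limma adjusted p = 0.0905). ERI1, an exonuclease that trims histone mRNA, was at 32.23, 47.74 and 31.08 TPM in the KDM2B-shRNA-labelled libraries, against 28.41, 22.21 and 23.21 TPM in scramble. It rose by 0.55 ± 0.18 (SE, limma adjusted p = 0.0331). The difference stayed positive but did not pass with trimmed-mean scaling (0.37, limma adjusted p = 0.114) or with quantile normalization (0.44, limma adjusted p = 0.0799). Nor did it pass after rescaling without mitochondrially encoded genes (0.45, limma adjusted p = 0.0682). ERI1 kept its call in 7 of 16 alternatives.

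The list of histone chaperones, which carry histones to and from DNA, also holds genes of histone exchange. Of its 33 tested genes 18 were higher, 4 lower and 11 did not pass, beside the same 33.3% and 17.6% of all genes. Under trimmed-mean scaling 13 were higher and 7 lower, beside 22.7% and 25.6% of all genes. The median difference was 0.32 over the 33 genes, against 0.16 over all genes. The 4 lower genes, named after their values were seen, were YEATS4, NAP1L1, HAT1 and RBBP7. Their differences were -0.65, -0.34, -0.23 and -0.23 (limma adjusted p = 0.00567, 0.00114, 0.00499 and 0.0308). ASF1B, a chaperone of new H3 and H4 in dividing cells, stood at 196.98, 191.7 and 186.49 TPM in the KDM2B-shRNA-labelled libraries, against 101.59, 100.51 and 83.28 TPM in scramble, and rose by 1.01 ± 0.09 (SE, limma adjusted p = 0.000106). Its paralog ASF1A was at 104.22, 94.97 and 80.65 TPM in the KDM2B-shRNA-labelled libraries, against 133.78, 113.18 and 103.19 TPM in scramble. ASF1A did not pass (-0.32 ± 0.12, limma adjusted p = 0.0619) but was lower and passed with trimmed-mean scaling (-0.50, limma adjusted p = 0.00793). CHAF1A, the large subunit of the replication-coupled assembly factor CAF-1, rose by 0.49 ± 0.09 (SE, limma adjusted p = 0.0032), while its partner CHAF1B had a difference of 0.10 ± 0.10 (SE, limma adjusted p = 0.462).

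Among chaperones of the H3.3 and centromere pathways, DAXX, HIRA and HJURP rose. DAXX, an H3.3 chaperone, stood at 12.64, 16.37 and 14.96 TPM in the KDM2B-shRNA-labelled libraries, against 7.37, 7.09 and 4.89 TPM in scramble, and rose by 1.08 ± 0.18 (SE, limma adjusted p = 0.0019). Its partner ATRX, a chromatin remodeller, had a difference of -0.11 ± 0.10 (SE, limma adjusted p = 0.417). HIRA, the H3.3 chaperone of active genes, rose by 0.35 ± 0.09 (SE, limma adjusted p = 0.0144) but did not pass with trimmed-mean scaling (0.17, limma adjusted p = 0.155). HJURP, the chaperone of the centromeric histone CENPA, rose by 0.59 ± 0.13 (SE, limma adjusted p = 0.00705), and CENPA itself had a difference of 0.17 ± 0.08 (SE, limma adjusted p = 0.134). NASP, a chaperone that holds soluble H3 and H4, had a difference of 0.06 ± 0.05 (SE, limma adjusted p = 0.337).

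Genes of H2A.Z exchange moved both ways beside the lower H2AZ1. ANP32E, a chaperone that removes H2A.Z, was at 287.29, 279.52 and 265.23 TPM in the KDM2B-shRNA-labelled libraries, against 223.04, 241.21 and 210.39 TPM in scramble. It rose by 0.30 ± 0.07 (SE, limma adjusted p = 0.00631) but did not pass with trimmed-mean scaling (0.12, limma adjusted p = 0.13). The list also holds 8 genes of the remodellers that deposit H2A.Z, named after their values were seen. SRCAP, the catalytic subunit of one such complex, rose to 21.2 ± 1.73 TPM in the KDM2B-shRNA-labelled libraries, against 9.77 ± 0.726 TPM in scramble (SD, n = 3 each, limma adjusted p = 0.000317). EP400 and VPS72 rose by 0.72 and 0.46 on the log2(TPM + 1) scale (limma adjusted p = 0.004 and 0.000292), and YEATS4 fell by 0.65 (limma adjusted p = 0.00567). RUVBL1 and RUVBL2, ATPases these complexes share with others, rose by 0.31 and 0.32 (limma adjusted p = 0.00296 and 0.0498), but neither passed with trimmed-mean scaling (limma adjusted p = 0.0616 and 0.35). ACTR6 and ZNHIT1 had differences of -0.13 and 0.28 and did not pass (limma adjusted p = 0.195 and 0.0629), though ACTR6 was lower and passed with trimmed-mean scaling (limma adjusted p = 0.0109). RUVBL2 kept its call in 4 of 16 alternatives, and ZNHIT1 passed without library 1 labelled KDM2B shRNA (limma adjusted p = 0.0466) or without scramble library 2 (limma adjusted p = 0.0296).

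**Figure D3:**
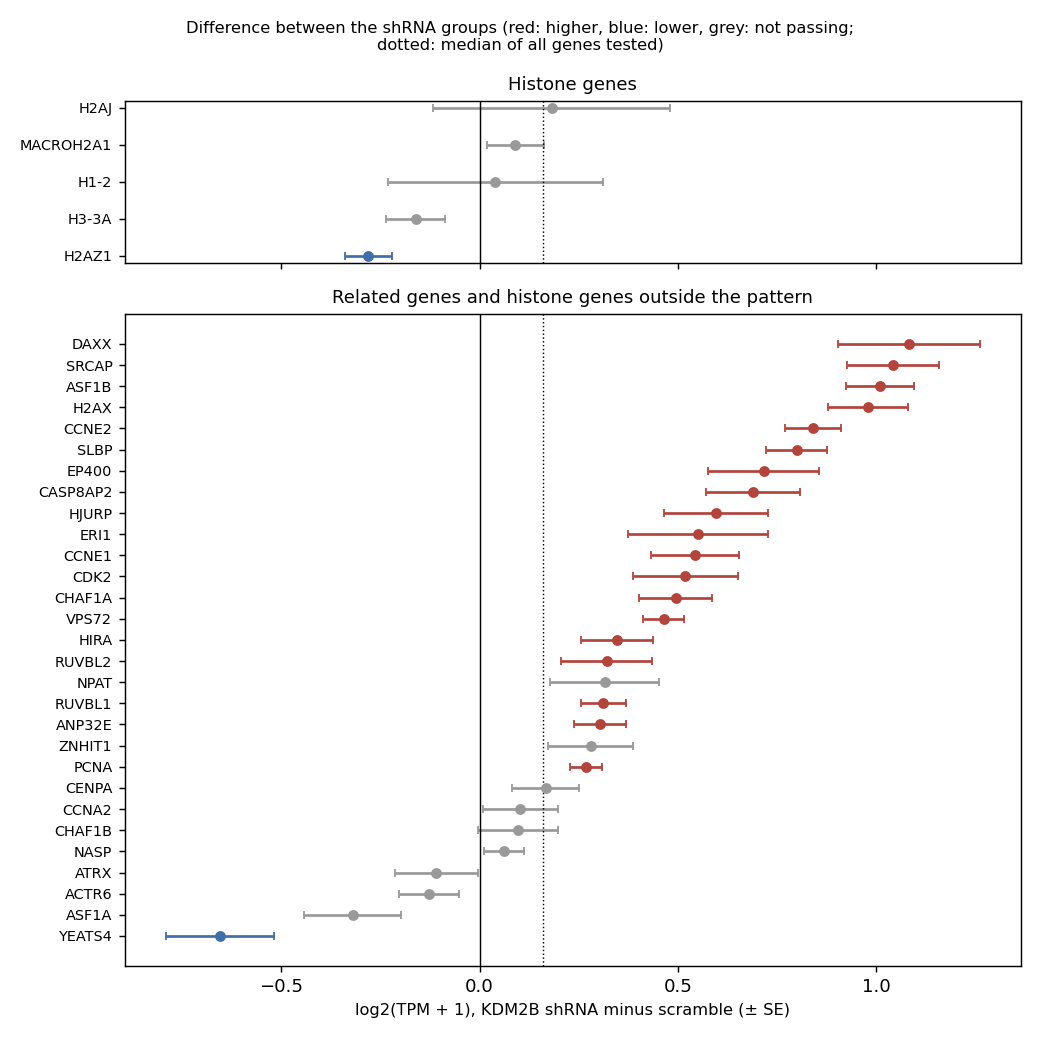
Difference between the KDM2B-shRNA-labelled libraries and scramble on the log2(TPM + 1) scale with its SE. The upper panel holds the tested histone genes above 0 in all 6 libraries. The lower panel holds the related genes named in the text other than NCBP1, MIF4GD, CPSF2, NAP1L1, HAT1, RBBP7, MCM6 and RRM1. H2AZ1 lies at -0.28 and SLBP at 0.80, and the dotted line marks the median of all genes tested, 0.16.

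S-phase genes were measured beside these genes. Of 26 tested S-phase genes 12 were higher, 2 lower and 12 did not pass, where 33.3% of all genes were higher and 17.6% lower. Under trimmed-mean scaling 10 were higher and 8 lower, where 22.7% of all genes were higher and 25.6% lower. Their median difference was 0.23, against 0.16 over all genes. Their summed level ranged from 3237.7 to 3401.8 TPM in the KDM2B-shRNA-labelled libraries and from 2635.7 to 2778.8 TPM in scramble, and was 2221.6 TPM in untreated JuB2 and 904.8 TPM in the EC-labelled library. CCNE2, a cyclin that starts S phase and activates histone transcription through NPAT, rose to 100.8 ± 6.01 TPM in the KDM2B-shRNA-labelled libraries, against 55.7 ± 0.579 TPM in scramble (SD, n = 3 each, limma adjusted p = 9.67e-05). CCNE1 rose by 0.54 ± 0.11 (SE, limma adjusted p = 0.00524), and their kinase CDK2 by 0.52 ± 0.13 (SE, limma adjusted p = 0.0132). The 2 lower genes of this list, named after their values were seen, were MCM6 and RRM1. Their differences were -0.76 and -0.81 (limma adjusted p = 7.28e-05 and 0.000222).

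CCNA2, the cyclin of later S phase, had a difference of 0.10 ± 0.09 (SE, limma adjusted p = 0.389). PCNA, the replication clamp, rose by 0.27 ± 0.04 (SE, limma adjusted p = 0.00114) but did not pass with trimmed-mean scaling (0.09, limma adjusted p = 0.0864) or quantile normalization (0.08, limma adjusted p = 0.128). The part of the S-phase genes in the higher H2AC rows was not tested. H2AX, the variant marked at DNA breaks and left out of the pattern, rose by 0.98 ± 0.10 (SE, limma adjusted p = 0.000226), in the opposite direction to H2AZ1.

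**Figure D4:**
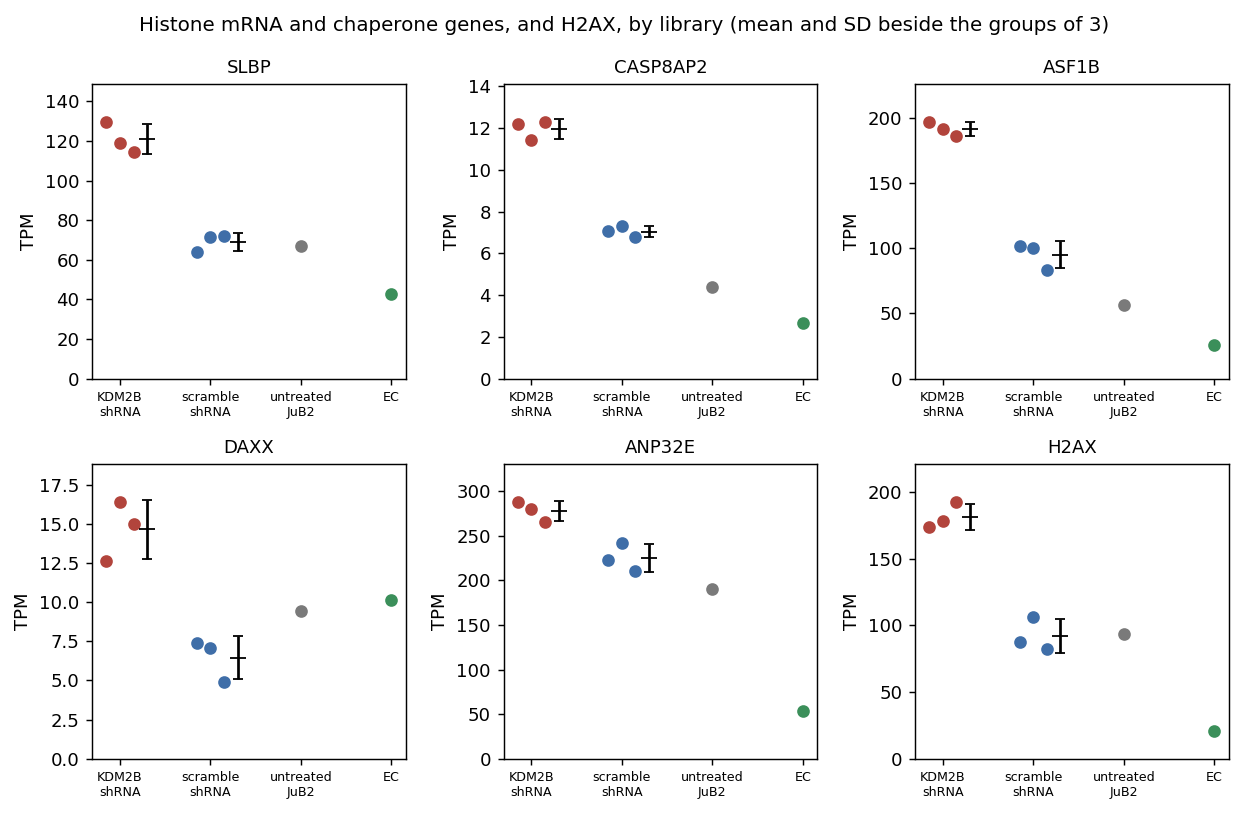
TPM by group of SLBP, CASP8AP2, ASF1B, DAXX, ANP32E and H2AX, with 1 point per library and the mean and SD beside each group of 3. In each panel the 3 libraries labelled KDM2B shRNA lie above the 3 scramble libraries, for SLBP at 114.6 to 129.58 TPM in the KDM2B-shRNA-labelled libraries and at 64 to 71.92 TPM in scramble.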

How the data were processed

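The authors deposited 1 TPM value per gene and library, and each column sums to the TPM total. STAR, RSEM and the build CanFam3.1 stand per the submitters' processing notes without version or role. For strand use and the assignment of reads shared between copies, the setting is not given in the sources used here. TPM keeps no depth, so depth is unknown and neither intervals nor floors were computed.

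Groups came from the labels. Genes reaching 1 TPM in 3 or more of the 6 shRNA libraries were tested with limma 3.58.1 in R 4.3.3 on log2(TPM + 1), a scale that understates the change of low genes, with an intensity trend and Benjamini-Hochberg adjustment over all 11485 genes at a threshold of 0.05. The fit was tested on simulated data. Figures were drawn with matplotlib 3.10.9.

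The members and lists were chosen with earlier results of these data known. Named genes are all members, a fixed set of related genes (LSM11 has no row of its own) and those stated as chosen later. Rows naming several genes were kept where the pattern takes them. Alternatives were 3 other scalings, pseudocounts of 0.1 and 5, other filters (none, or a mean of at least 5 TPM), no trend, all 8 libraries, the replicate number as a block and leaving out each library.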

Additional observations from a re-analysis of the deposited data

How the results depend on the processing

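Among the histone classes, the count of variant genes called lower was 2 in place of 1 (H2AZ1 and H3-3A) with trimmed-mean scaling, quantile normalization and rescaling without mitochondrially encoded genes. Leaving out 1 library at a time gave 0 to 1 replication-dependent rows higher, 0 to 1 lower and 0 to 1 variant genes higher. Without a KDM2B-shRNA-labelled library H2AC13 misses the filter. The row higher is then row B without library 1 (5.383) and row A without library 2 (3.503), with none without library 3. The single lower row is H2AC6 and the variant gene higher is H2AJ. The differences that changed sign did not pass before or after. With trimmed-mean scaling these were MACROH2A1 (-0.091), H1-2 (-0.12), CHAF1B (-0.08), NASP (-0.119), CCNA2 (-0.076) and CENPA (-0.014), with quantile normalization H1-2 (-0.13), CHAF1B (-0.024) and NASP (-0.075), and after rescaling without mitochondrially encoded genes MACROH2A1 (-0.013), H1-2 (-0.053), CHAF1B (-0.005) and NASP (-0.041). Leaving out 1 library moved H1-2 between -0.191 and 0.266, H2AC11 between -0.337 and 1.221 and H2AJ between -0.027 and 0.564. Of all genes tested, trimmed-mean scaling called 2593 higher and 2925 lower, against 3823 and 2027. The same replicate number did not pair the libraries (correlations of deviations 0.034, 0.012 and -0.046). With the replicate number as a block 3578 genes were higher and 1870 lower, ERI1 did not pass (limma adjusted p = 0.0562) and ASF1A did (limma adjusted p = 0.0108). Apart from the scaling, the cause of these shifts was not tested.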
